A study of Caenorhabditis elegans with 11 samples.

Results

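The mRNA of gonads dissected from cup-4 mutant Caenorhabditis elegans was compared with that of wild-type gonads. The mutant strain was RB950, which carries the ok837 allele of cup-4, and the wild type was N2. All animals were adults on day 1, and the labels name the tissue as germline. No further allele, transgene or treatment is named for either strain. The comparison rests on cup-4 replicates 1, 2 and 3 and wild-type replicates 2 and 3, which are 5 of the 11 libraries in the series. The remaining 6 libraries hold antisense small RNA of the same strains, which is used here only as a second readout of the genes that stand out in mRNA. The count table listed 46904 genes, of which 12861 had enough reads to be tested. The series calls its replicates biological, but the number of gonads or animals behind a library is not given in the sources used here.

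The hermaphrodite gonad holds germ cells that pass from dividing stem cells at the distal tip through meiosis to oocytes, within a thin somatic layer of sheath and spermatheca cells. It touches the intestine along its length. The intestine makes yolk proteins, secretes them into the body cavity, and oocytes take them up through the receptor RME-2. CUP-4 is a membrane protein of coelomocytes, scavenger cells that endocytose fluid from the same body cavity, and the title of the series links the failure of such cells to RNA homeostasis and to heritable tumours of the germline.

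Gene counts per library lay between 21290140 and 29559542, and every pair of libraries differed by more than sampling noise. Replicate 1 of cup-4 stood apart from the other cup-4 libraries. It is alone in its batch, because the replicate number is also the batch number in the labels, and yolk protein genes took 12.9% of its counts. Their share was 2.50% and 4.23% in cup-4 replicates 2 and 3, and 0.534% and 0.374% in wild-type replicates 2 and 3. The wild-type libraries also differed from each other: the summed level of the major sperm protein family was 1062 CPM (reads of a gene scaled to a common library total with TMM factors) in replicate 2 and 69.6 CPM in replicate 3. Ribosomal RNA genes took 2.28%, 0.388% and 1.48% of counts in cup-4 replicates 1, 2 and 3, against 4.64% and 4.04% in wild-type replicates 2 and 3. Below, values of single libraries are given for cup-4 replicates 1, 2 and 3 and then for wild-type replicates 2 and 3, and results that rest on cup-4 replicate 1 are also given without it.

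The mutated gene itself was read first. The gene cup-4 (WBGene00000845) spans III:7866489-7868737 in assembly WBcel235, and its level was 1.2, 1.17 and 0.859 CPM in cup-4, against 4.604 and 3.44 CPM in wild type. Both wild-type libraries lay above all 3 cup-4 libraries, for a log2 ratio of -1.90 ± 0.46 (SE). It fell in DESeq2 (adjusted p 0.00695), whereas its adjusted p was 0.148 in edgeR's quasi-likelihood test and 0.189 with the replicate block. Which exons the deleted stretch covers is not given in the sources used here, so residual reads cannot be placed relative to it. The label germline was borne out by abundant oocyte and germ cell genes in every library. The yolk receptor gene rme-2 stood at 6426, 4222 and 8812 CPM in cup-4, against 3426 and 8324 CPM in wild type, and the germ granule helicase gene glh-1 at 1136, 969.5 and 1304 CPM in cup-4, against 849 and 2017 CPM in wild type. Both genes overlapped between genotypes, and neither passed in any tool. Somatic markers were present too. The gonadal sheath genes lim-7 and ceh-18, chosen after their values were seen, had 4.799, 2.03 and 6.44 against 4.05 and 5.02 CPM and 2.40, 1.84 and 2.92 against 1.38 and 1.497 CPM (cup-4 replicates first, then wild type). The intestinal GATA factor gene elt-2, chosen in the same way, had 1.30, 0.729 and 1.42 against 1.26 and 0.202 CPM. A bulk library cannot tell fewer cells of a type from less RNA per cell, and this holds for every tissue below.

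Fold changes below are log2 ratios of cup-4 over wild type. No gene passed an adjusted p of 0.05 in the quasi-likelihood test of edgeR. The smallest adjusted p was 0.122, while 1392 genes were higher and 817 lower in cup-4 at an unadjusted p under 0.05, which is 10.8% and 6.35% of those tested. Counts of higher and lower genes within the lists below are to be read against these shares. The genotypes did not overlap for 2588 higher genes (20.1%) and 2287 lower genes (17.8%). With 3 and 2 libraries in random order, 10% of genes would be expected to separate each way. Genes are not independent replicates, and the excess over 10% was not tested. When genotypes were compared inside batches (the replicate block), 192 genes rose (1.49%) and 7 fell (0.0544%) at an adjusted p under 0.05. That fit leaves 1 residual degree of freedom, and its genotype difference comes from batches 2 and 3. On these batches alone the replicate block called 4 genes, clec-41, asah-1, Y55F3AM.11 and catp-7, all among the 199. DESeq2 called 747 higher genes (5.81%) and 319 lower ones (2.48%), and these held 194 of the 199 genes of the replicate block (97.5% of them, and 18.2% of the DESeq2 calls). Without cup-4 replicate 1, when 12277 genes could be tested, the unadjusted counts were 736 higher and 823 lower, and their median log2 ratio was -0.027, in place of 0.16 over the 12861 genes with all 5 libraries.

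The 12 higher genes of lowest p, taken from genes that averaged 10 CPM or more and did not overlap between genotypes, began with an intestinal one. All 12 rose in the fit with the replicate block and in DESeq2. The first, ifo-1 (WBGene00018350, protein-coding, IV:7320734-7326663), encodes an organizer of the intermediate filaments that line the intestinal lumen. Its level was 22.6, 12.8 and 13.6 CPM in cup-4, against 1.18 and 0.769 CPM in wild type. Each cup-4 library was above both wild-type libraries by more than 10 times, and the log2 ratio was 4.06 ± 0.45 (SE), with an adjusted p of 0.0153 with the replicate block and 0.122 without it. The fatty acid amide hydrolase gene faah-2 (WBGene00015048, IV:8152445-8154857) had 66.5, 43.6 and 40.5 CPM in cup-4, against 8.22 and 7.52 CPM in wild type, with no overlap and a log2 ratio of 2.67 ± 0.30 (SE), and its adjusted p with the replicate block was 0.0153. The gene endu-2, of the EndoU family of nucleases, had 34.01, 26.2 and 29.4 CPM in cup-4, against 6.30 and 4.37 CPM in wild type, a log2 ratio of 2.48 ± 0.28 (SE), and its adjusted p with the replicate block was 0.0180. All 3 cup-4 libraries lay above both wild-type libraries for these 3 genes, as their choice required.

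The other 9 higher genes had log2 fold changes between 1.61 for smd-1, which encodes S-adenosylmethionine decarboxylase of polyamine synthesis, and 4.41 for F28B4.3. The smd-1 level was 52.4, 47.2 and 47.8 CPM in cup-4, against 15.7 and 16.51 CPM in wild type, close together within each genotype. The C-type lectin gene clec-41 had 294, 149 and 147 CPM in cup-4, against 15.7 and 11.0 CPM in wild type, and here cup-4 replicate 1 stood well above the other cup-4 libraries. The vacuolar proton pump subunit gene vha-6, which acts at the apical membrane of the intestine, had 142, 111.8 and 99.9 CPM in cup-4, against 33.6 and 25.6 CPM in wild type. Neither genotype's range reached the other's for these genes, as their choice required. The remaining 6 were itx-1 (a neurexin-like protein, log2 ratio 3.73), pcp-3 (a serine carboxypeptidase, 3.38), unc-23 (a BAG-family co-chaperone, 1.77), hpo-34 (2.55), F09C8.1 (3.24) and F28B4.3. Without cup-4 replicate 1 the log2 fold changes of all 12 lay between 1.48 and 3.84. Their sign followed from the choice of genes without overlap, so it is no separate check. Genes of lowest p with the replicate block added gfi-1, with 151, 35.1 and 74.3 CPM in cup-4, against 3.27 and 3.16 CPM in wild type, and the acid ceramidase gene asah-1, with 173, 149.9 and 75.1 CPM in cup-4, against 19.2 and 9.18 CPM in wild type. In gfi-1 every cup-4 library exceeded wild type at least 10 times, and its adjusted p with the replicate block was 0.0153, as for asah-1. In Y55F3AM.11 it was cup-4 replicate 1 that lay closest to wild type, with 28.8, 82.0 and 93.2 CPM in cup-4, against 10.0 and 9.55 CPM in wild type.

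**Figure D1:**
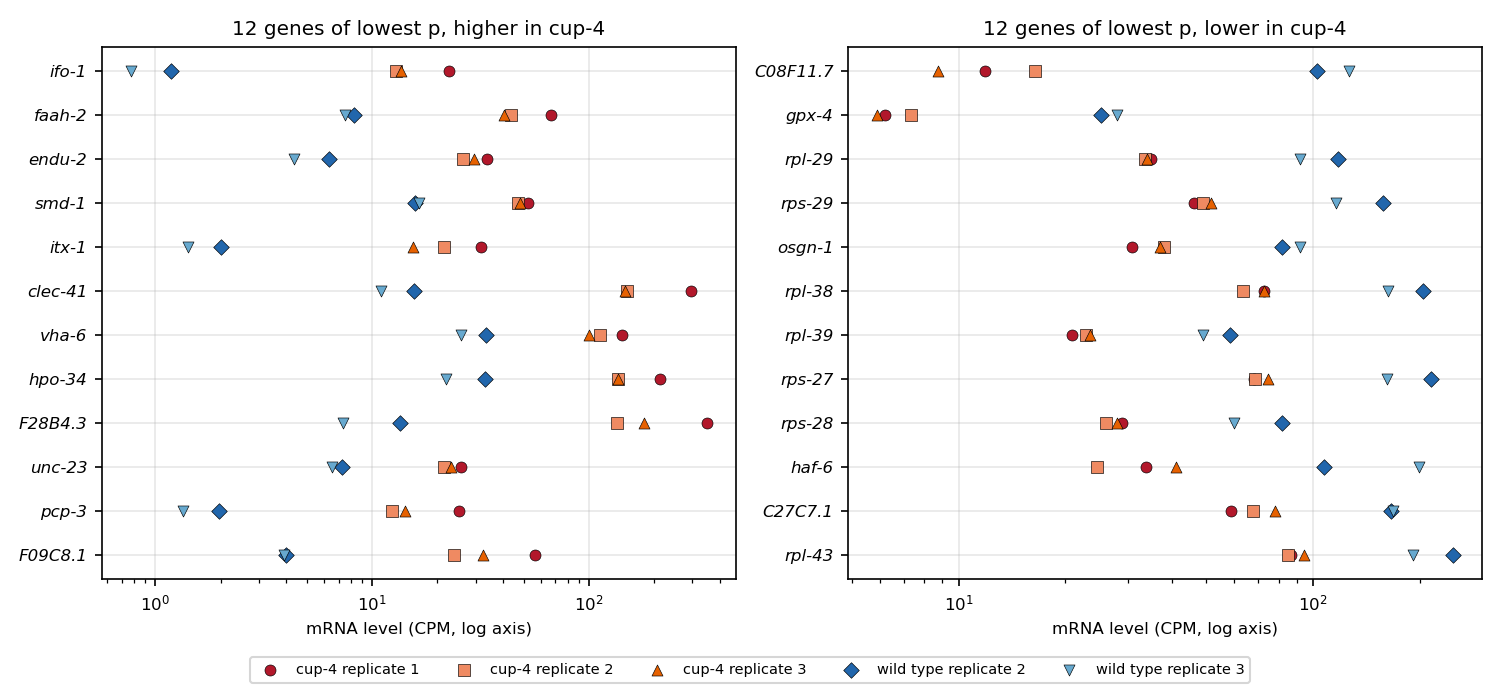
mRNA level in CPM (log axis) of the 12 genes of lowest p in each direction that averaged 10 CPM or more and did not overlap, 1 symbol per library. Each row shows the 3 cup-4 libraries (red to orange) apart from the 2 wild-type libraries (blue), with ifo-1 the gene of lowest p among the higher genes and C08F11.7 among the lower ones.

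The 12 lower genes of lowest p included 7 genes of cytosolic ribosomal proteins. All 12 fell in DESeq2, and 4 of them, C08F11.7, gpx-4, rpl-29 and haf-6, also fell with the replicate block. C08F11.7 (WBGene00007454, IV:13637275-13638666) had 11.9, 16 and 8.76 CPM in cup-4, against 103 and 126 CPM in wild type. The wild-type libraries held more than 6 times the level of any cup-4 library, and the log2 ratio was -3.21 ± 0.30 (SE), with an adjusted p of 0.0180 with the replicate block. The glutathione peroxidase gene gpx-4 (IV:2672962-2675015) had 6.21, 7.32 and 5.88 CPM in cup-4, against 25.2 and 27.99 CPM in wild type, and a log2 ratio of -2.04 ± 0.24 (SE), and its adjusted p with the replicate block was 0.0282. The transporter gene haf-6 (I:1162880-1175809), which encodes an ABC transporter known to be needed for efficient RNAi in worms, had 33.8, 24.6 and 41.1 CPM in cup-4, against 108 and 199 CPM in wild type. Wild-type replicate 3 lay well above wild-type replicate 2, and the lower of them was more than 2 times the highest cup-4 library. The log2 ratio was -2.21 ± 0.34 (SE), and the adjusted p with the replicate block was 0.0180.

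The large-subunit gene rpl-29 had 34.8, 33.6 and 34.01 CPM in cup-4, against 117 and 92.1 CPM in wild type, a nearly constant level in cup-4 and a log2 ratio of -1.62 ± 0.19 (SE), and its adjusted p with the replicate block was 0.0333. For osgn-1, a homologue of a growth inhibitor induced by oxidative stress, the level was 30.8, 38.03 and 37.1 CPM in cup-4, against 82.0 and 92.0 CPM in wild type, and the log2 ratio of -1.3 ± 0.19 (SE) had an adjusted p of 0.0729 with the replicate block and 6.77e-05 in DESeq2. C27C7.1 had a log2 ratio of -1.29 ± 0.21 (SE). The other 6 ribosomal protein genes (rps-29, rpl-38, rpl-39, rps-27, rps-28 and rpl-43) lay between -1.48 and -1.26. The replicate block also called 3 lower genes outside these 12. One is WBGene00014472, which carries no symbol in the tables used, with 209, 52.5 and 119.5 CPM in cup-4, against 621 and 534 CPM in wild type. The others, C30G12.1 and C38D9.2, had means under 10 CPM.

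The intestinal structure list, with the filaments, the brush border and apical transporters, had 26 genes tested and a median log2 ratio of 1.46, against 0.16 for all tested genes. At an unadjusted p under 0.05, 12 were higher and 0 lower, and with the replicate block 7 rose: act-5, ifb-2, ifc-2, ifd-2, nhx-2, pept-1 and ifo-1. The oligopeptide transporter gene pept-1 had 137, 48.4 and 66.6 CPM in cup-4, against 7.59 and 5.10 CPM in wild type, a log2 ratio of 3.72 ± 0.55 (SE), and its adjusted p with the replicate block was 0.0153. The filament gene ifd-2 had 7.46, 5.01 and 7.86 CPM in cup-4, against 0.866 and 0.688 CPM in wild type, and ifc-2 had 166, 72.9 and 69.6 CPM in cup-4, against 22.04 and 12.7 CPM in wild type. In all 3 the lowest cup-4 library was more than 3 times the highest wild-type one. Not every member was higher: erm-1, an ezrin-radixin-moesin protein that the germline also uses, had 221, 243 and 269 CPM in cup-4, against 177 and 308 CPM in wild type, and the genotypes overlapped. They overlapped too for the GATA factor gene elt-2, whose values are given above. Of the 26 genes, 16 were higher and 1 lower without overlap, against 20.1% and 17.8% of all tested genes. Over the alternatives tried the list's median ran between 1.01 with the replicate block on batches 2 and 3 and 2.32 when wild-type replicate 2 was left out.

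Digestive proteases, lysozymes and saposin-like proteins of the gut gave 40 tested genes. Every 1 of them had a positive log2 fold change, with a median of 2.05. Of these, 28 were higher at an unadjusted p under 0.05, 24 rose in DESeq2 and 5 with the replicate block (asp-6, cpr-1, cpr-5, lipl-5 and spp-18). The cathepsin B-like gene cpr-5 had 2607, 2343 and 1667 CPM in cup-4, against 522 and 312 CPM in wild type. Its log2 ratio was 2.40 ± 0.40 (SE), and its adjusted p with the replicate block was 0.0256. The aspartyl protease gene asp-3 had 3309, 2124 and 2006 CPM in cup-4, against 766 and 321 CPM in wild type, and cpr-6 had 4161, 2418 and 1700.2 CPM in cup-4, against 1060.4 and 232 CPM in wild type; wild-type replicate 2 stood well above replicate 3 in both. The list summed to 20662, 14100.2 and 10874 CPM in cup-4, against 5357 and 1981 CPM in wild type. Over the alternatives its median ran between 1.47 without wild-type replicate 3 and 2.90 when wild-type replicate 2 was left out.

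Yolk protein genes gave the highest median of any list, 4.14. All 6 vit genes rose with the replicate block and in DESeq2, and they summed to 143593, 23447 and 43994 CPM in cup-4, against 4695 and 3952 CPM in wild type. The smallest cup-4 sum was about 5 times the larger wild-type sum, and cup-4 replicate 1 held more than 3 times the yolk mRNA of either other cup-4 library. For vit-6, on chromosome IV, the level was 39566, 6718 and 12769 CPM in cup-4, against 1365 and 1081 CPM in wild type, a log2 ratio of 4.01 ± 0.89 (SE), and its adjusted p with the replicate block was 0.0260. The X-linked vit-4 had 7201, 1069.6 and 2309 CPM in cup-4, against 182 and 141 CPM in wild type, a log2 ratio of 4.45 ± 0.94 (SE). Without cup-4 replicate 1 the list median was 3.01. The vit genes are near-identical in part, so their single values depend on how shared reads were assigned. The yolk receptor gene rme-2, an oocyte gene, had a log2 ratio of 0.14 ± 0.51 (SE).

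**Figure D2:**
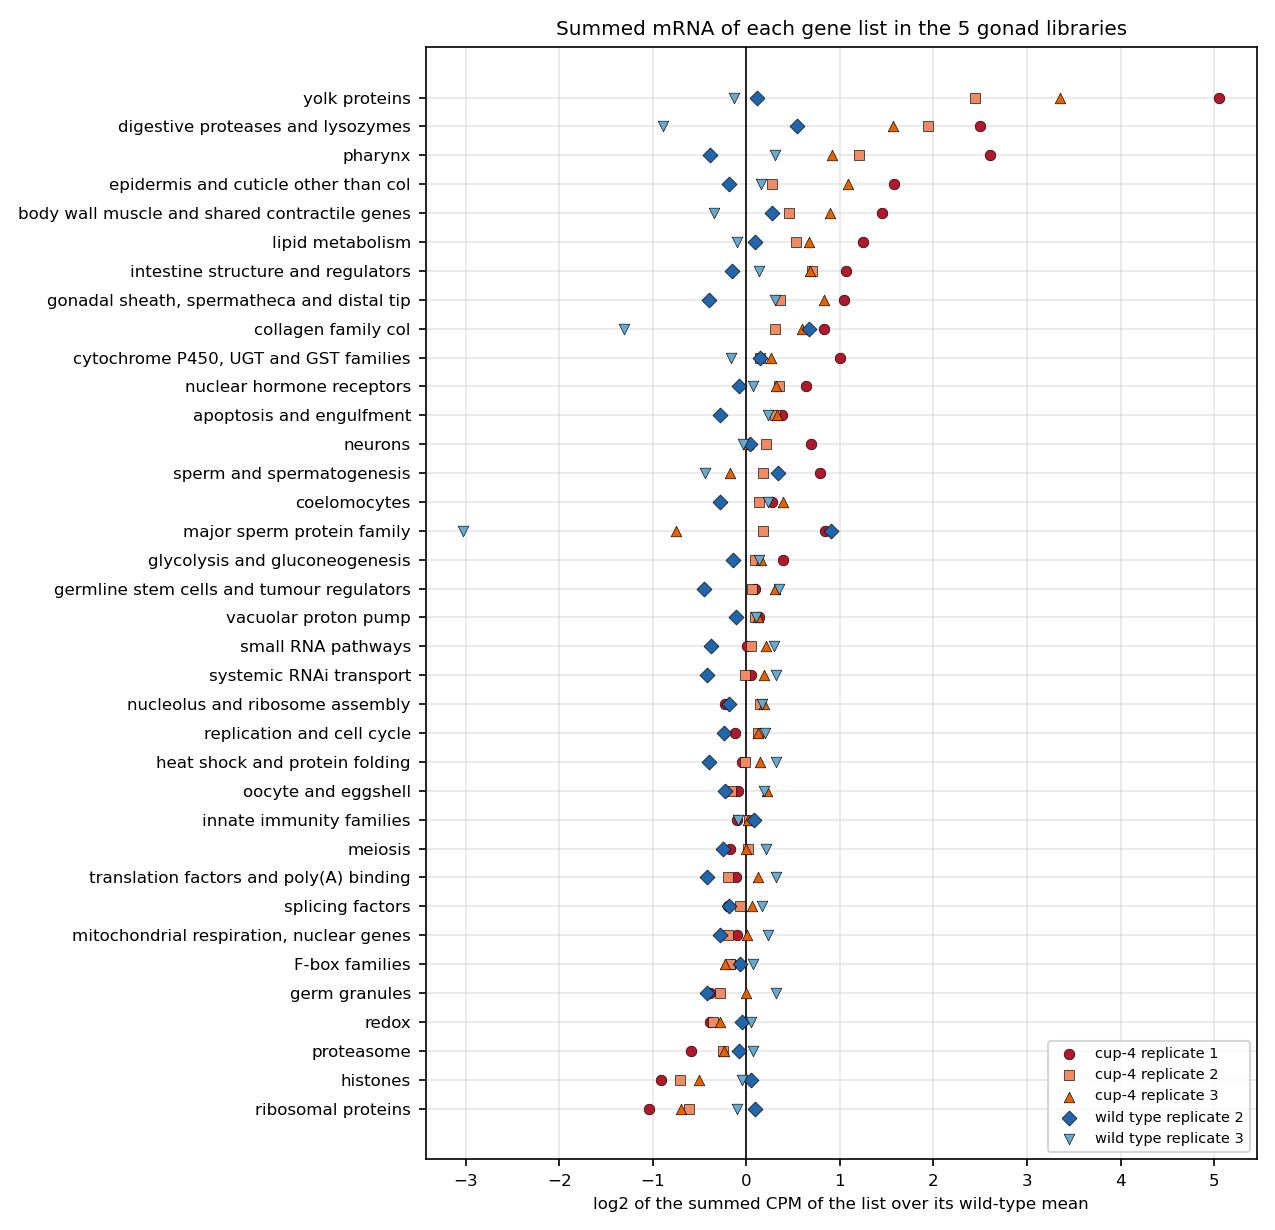
Summed CPM of each gene list in each library, as log2 of its ratio to the mean of the 2 wild-type libraries, with lists sorted by the cup-4 mean. The list of long intergenic noncoding RNA is not shown. Yolk, digestive and other somatic lists lie right of 0 in the 3 cup-4 libraries (red to orange), ribosomal proteins and histones lie left of 0, and the sperm and collagen lists split the 2 wild-type libraries (blue).

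Part of the genes of lipid metabolism were also higher. Of 48 lipid genes, 17 were higher and 0 lower at an unadjusted p under 0.05, with a median of 0.95, and dhs-28, faah-2 and acs-22 rose with the replicate block. The SREBP-type factor gene sbp-1, a regulator of fat synthesis, had 17.2, 17.9 and 13.6 CPM in cup-4, against 4.56 and 5.22 CPM in wild type, and it rose in DESeq2 (adjusted p 1.61e-05) but not with the replicate block (0.0613). The acyl-CoA dehydrogenase gene acdh-1 had 2599.9, 1158 and 1275 CPM in cup-4, against 741 and 306 CPM in wild type. By comparison plin-1, the lipid droplet perilipin, had 254, 306 and 304 CPM in cup-4, against 340.0 and 439 CPM in wild type. The glyoxylate cycle enzyme gene icl-1, which lets worms turn fat into sugar, had 1991, 602 and 529 CPM in cup-4, against 187 and 118.6 CPM in wild type, a log2 ratio of 2.77 ± 0.71 (SE), and its adjusted p with the replicate block was 0.0425. The log2 ratio of icl-1 was 1.80 without cup-4 replicate 1. The lipid list had a median of 0.58 without that library and 0.59 without wild-type replicate 3. The list of glycolysis and gluconeogenesis that holds icl-1 had a median of -0.0089, with 5 higher and 2 lower of 28, and that median was -0.21 without wild-type replicate 2 and 0.091 when wild-type replicate 3 was left out. The aldolase gene aldo-2 had 2442, 2482 and 2406 CPM in cup-4, against 2296 and 2258 CPM in wild type.

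The detoxification families (cytochrome P450, UDP-glucuronosyltransferase and glutathione S-transferase genes) had 137 tested members, a median of 1.21, and 49 higher against 1 lower at an unadjusted p under 0.05. The replicate block called 6 of them higher. Of the 137, 12 were under the filter level of about 0.413 CPM in every library of 1 genotype, against 700 of all 12861. Such genes were tested only through their reads in the other genotype. The gene cyp-13A5 had 111, 25.9 and 43.1 CPM in cup-4, against 4.72 and 5.02 CPM in wild type (replicate block, adjusted p 0.0153), and ugt-23 had 49.4, 42.6 and 22.8 CPM in cup-4, against 8.26 and 3.76 CPM in wild type (replicate block, adjusted p 0.0153). The opposite direction was seen for gst-1, with 138, 156 and 148 CPM in cup-4, against 251 and 238 CPM in wild type, and it fell in DESeq2 (adjusted p 0.0172). The list median was 0.59 without cup-4 replicate 1, 0.79 without wild-type replicate 3 and 2.03 when wild-type replicate 2 was left out.

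Innate immunity families, mostly C-type lectin genes, had 124 tested members and a median of 1.06, with 37 higher, 1 lower and 8 that rose with the replicate block. Their sum nevertheless overlapped between genotypes, 17987, 19664 and 19556 CPM in cup-4, against 20490.2 and 18099.5 CPM in wild type. Most of the sum came from 3 lectin genes, clec-87, clec-88 and clec-91. The first of these, clec-87, had 8904, 12166 and 12393 CPM in cup-4, against 13714 and 12878 CPM in wild type. The gene clec-150 had 355, 353 and 239 CPM in cup-4, against 95.3 and 53.0 CPM in wild type, a log2 ratio of 2.09 ± 0.37 (SE), and its adjusted p with the replicate block was 0.0287. The list median was 0.49 without cup-4 replicate 1, 0.57 without wild-type replicate 3 and 2.21 when wild-type replicate 2 was left out. Of its 124 genes, 14 were under the filter level in every library of 1 genotype. Nuclear hormone receptors, a family of ligand-regulated transcription factors, had a median of 0.80 over 154 genes, with 25 higher and 1 lower. Only nhr-8 rose with the replicate block (adjusted p 0.0223), with 36.2, 21.4 and 20.9 CPM in cup-4, against 5.59 and 4.13 CPM in wild type. With cup-4 replicate 1 left out, the receptor median was 0.47, and it was 0.53 without wild-type replicate 3. Of the 154 receptor genes, 13 were under the filter level in every library of 1 genotype.

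Lists of contractile and other somatic tissues also had medians above that of all genes. Of 47 muscle genes 17 were higher and 0 lower at an unadjusted p under 0.05, the median was 0.77, and atn-1, ketn-1, myo-3 and unc-52 rose with the replicate block. The alpha-actinin gene atn-1 had 45.3, 30.2 and 28.8 CPM in cup-4, against 10.2 and 7.24 CPM in wild type, a log2 ratio of 2.00 ± 0.32 (SE), and its adjusted p with the replicate block was 0.0282. The body wall myosin gene myo-3 had 38.9, 17.3 and 21.8 CPM in cup-4, against 4.33 and 6.35 CPM in wild type. The myosin gene unc-54 had 1979, 169.6 and 1166 CPM in cup-4, against 113 and 108 CPM in wild type; its cup-4 replicate 2 lay far below the other cup-4 libraries, and its adjusted p was 0.484 with the replicate block and 0.000750 in DESeq2. The median of the muscle list was 0.47 with cup-4 replicate 1 left out, and it reached 1.25 without wild-type replicate 2.

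The list of sheath, spermatheca and distal tip genes, the somatic gonad proper, had 34 tested genes and a median of 0.93. At an unadjusted p under 0.05, 14 were higher and 1 lower. The 7 that rose with the replicate block were mainly basement membrane and contractility genes: emb-9 and let-2 (type IV collagen), epi-1 (laminin), nid-1 (nidogen), nmy-1 (non-muscle myosin), itr-1 (the IP3 receptor) and gon-2 (a TRPM channel). Worm basement membrane proteins are also made by body wall muscle, so these members do not mark the gonad alone. The gene nid-1 had 69.2, 36.9 and 35.0 CPM in cup-4, against 8.89 and 7.77 CPM in wild type, a log2 ratio of 2.50 ± 0.38 (SE), and its adjusted p with the replicate block was 0.0180. The gene let-2 had 928, 153 and 581 CPM in cup-4, against 50.3 and 84.4 CPM in wild type, and its cup-4 replicates differed by more than 6 times. The filamin gene fln-1, used in spermathecal contraction, had 965, 674 and 1031 CPM in cup-4, against 247 and 619 CPM in wild type. The innexin gene inx-14, with 363, 371 and 401 CPM in cup-4, against 385 and 496 CPM in wild type, overlapped between genotypes. So did the sheath marker lim-7 given above. By the values given above, the sheath marker ceh-18 did not overlap: at a low level, all 3 cup-4 libraries lay above both wild-type ones, by less than for nid-1. Over the alternatives the median ran between 0.66 with the replicate block on batches 2 and 3 and 1.13 when wild-type replicate 3 was left out.

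Pharynx genes had a median of 1.36 (6 of 14 higher, 0 lower), and its members include the pharyngeal myosins. The myosin gene myo-2 had 91.0, 23.5 and 16.19 CPM in cup-4, against 1.73 and 7.24 CPM in wild type, with cup-4 replicate 1 far above the other cup-4 libraries. It rose in DESeq2 (adjusted p 0.00176) and not with the replicate block (0.402). Epidermal and cuticle genes other than col had a median of 0.87 (6 of 26 higher, 0 lower). The spectraplakin gene vab-10, which anchors epidermal attachments, had 386, 82.1 and 223 CPM in cup-4, against 38.8 and 73.3 CPM in wild type. Neuron genes had a median of 0.55, with 2 of 36 higher and 0 lower, and the median was 0.073 without cup-4 replicate 1 and 0.34 without wild-type replicate 3. Coelomocyte genes, including general endocytosis genes named for their coelomocyte phenotypes, had a median of 0.38, with 0 higher and 3 lower of 14. The lower genes were cup-4, cup-2 and cup-15, and the median was 0.10 without wild-type replicate 2. Of the 14 genes, 9 had a positive log2 fold change. Without overlap 3 were higher and 3 lower, against 20.1% and 17.8% of all tested genes. The derlin gene cup-2 had 79.8, 63.96 and 85.5 CPM in cup-4, against 123 and 102 CPM in wild type. The coelomocyte-enriched genes unc-122 and lgc-26, chosen after their values were seen, had low levels. These were 1.88, 1.17 and 1.46 against 0.866 and 0.890 CPM for unc-122, and 5.22, 0.666 and 3.13 against 1.65 and 1.13 CPM for lgc-26 (cup-4 first). For unc-122 every cup-4 library lay above both wild-type ones, while lgc-26 overlapped between genotypes.

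The lists of germline genes had medians close to that of all genes. Of all tested genes, 10.8% were higher and 6.35% lower at an unadjusted p under 0.05. Oocyte and eggshell genes had -0.12, with 1 higher (cav-1) and 1 lower (cey-2) of 39 at an unadjusted p under 0.05, and no member passed with the replicate block or in DESeq2. Without wild-type replicate 2 the median was -0.26. The eggshell gene cbd-1 had 4199.6, 4090.5 and 5621 CPM in cup-4, against 2225 and 4519 CPM in wild type, and the genotypes overlapped. The germline Y-box gene cey-2 had 897, 1294 and 1326 CPM in cup-4, against 2008 and 1962 CPM in wild type, a log2 ratio of -0.76 ± 0.30 (SE) and an edgeR adjusted p of 0.269. Stem cell and tumour regulators had a median of 0.13, and none of 42 passed at an unadjusted p under 0.05, with edgeR or, after adjustment, with DESeq2. The Notch receptor gene glp-1, which keeps germline stem cells dividing, had 318, 322 and 348 CPM in cup-4, against 120.2 and 283 CPM in wild type. Its cup-4 libraries were close together and above both wild-type ones, and its edgeR adjusted p was 0.410. The translational repressor gene nos-2 had 387, 468 and 479 CPM in cup-4, against 606 and 623 CPM in wild type, so its wild-type libraries lay above all cup-4 libraries. The median of the stem cell list changed sign with the wild-type libraries, and ran between -0.17 without wild-type replicate 2 and 0.52 when wild-type replicate 3 was left out.

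Meiosis genes had a median of -0.12, with 0 higher and 6 lower of 54, against 10.8% higher and 6.35% lower of all tested genes. The lowest p was that of zhp-1, which encodes a RING protein of crossover control, with 15.2, 15.6 and 15.2 CPM in cup-4, against 25.7 and 24.2 CPM in wild type, and it fell in DESeq2 (adjusted p 0.0439). The synaptonemal complex gene syp-4 had 449, 383 and 479.6 CPM in cup-4, against 257 and 572 CPM in wild type. Replication and cell cycle genes had a median of -0.029, with 0 higher and 1 lower of 60, each share below that of all tested genes. Both medians depended on a single wild-type library. That of meiosis was -0.28 when wild-type replicate 2 was left out and 0.098 when wild-type replicate 3 was. That of replication was -0.20 and 0.12 under the same omissions. Apoptosis and engulfment genes had a median of -0.0072, which was 0.41 without wild-type replicate 3. Their sum did not overlap, with 2058, 1962 and 1987 CPM in cup-4, against 1306 and 1861 CPM in wild type. Of 27 tested, 3 were higher and 0 lower at an unadjusted p under 0.05. The higher share was close to the 10.8% of all tested genes. These 3 genes were crn-6, epg-5 and nuc-1, a DNase II of lysosomes with 270.3, 165 and 128 CPM in cup-4, against 63.7 and 29.7 CPM in wild type (DESeq2, adjusted p 0.00125).

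For sperm genes the wild-type libraries lay far apart. The sperm and spermatogenesis list had a median of 0.33, which was -0.33 when wild-type replicate 3 was left out and 2.75 when wild-type replicate 2 was, and -0.26 without cup-4 replicate 1. The major sperm protein family, cytoskeletal proteins of amoeboid sperm, summed to 1016, 640.1 and 337 CPM in cup-4, against 1062 and 69.6 CPM in wild type. Its median was 0.21, and it ran between -0.78 without wild-type replicate 3 and 3.18 when wild-type replicate 2 was left out, with -0.32 when cup-4 replicate 1 was. No member of the family passed any threshold, and near-identical msp genes share reads. The col collagen family of the cuticle behaved in the same way. It summed to 25500.4, 17721 and 21668 CPM in cup-4, against 22951 and 5803 CPM in wild type, and its median of 0.45 turned to -0.20 when wild-type replicate 3 was left out and to 1.84 when wild-type replicate 2 was.

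Genes of small RNA pathways had a median of 0.075, with 3 higher and 3 lower of 65 at an unadjusted p under 0.05. Each share was below that of all tested genes, 10.8% and 6.35%. The secondary Argonaute gene sago-1 had 19.7, 12.11 and 14.2 CPM in cup-4, against 5.82 and 7.28 CPM in wild type, and it rose in DESeq2 (adjusted p 0.0196). The piRNA biogenesis gene tofu-5 had 48.5, 57.4 and 60.9 CPM in cup-4, against 94.8 and 90.4 CPM in wild type, and it fell in DESeq2 (adjusted p 0.0478). The abundant germline Argonaute gene wago-1 had 777, 1028 and 1043 CPM in cup-4, against 725 and 1242 CPM in wild type, with wild-type replicates at both ends of the range. Without wild-type replicate 2 the median was -0.20, and 0.36 when wild-type replicate 3 was left out. Germ granule genes had a median of -0.0023, with none of 19 passing an unadjusted p of 0.05 in edgeR, and -0.30 and 0.28 under the same omissions. In the list of systemic RNAi transport, with 13 genes tested and a median of 0.31, endu-2 rose and haf-6 fell with the replicate block, as given above. That median was 0.071 with wild-type replicate 2 left out and 0.70 with wild-type replicate 3 left out. The gene sid-2, which encodes the importer of double-stranded RNA from the gut lumen, had 3.65, 3.04 and 2.96 CPM in cup-4, against 0.944 and 0.526 CPM in wild type, and it rose in DESeq2 (adjusted p 0.0110) but not with the replicate block (0.193).

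Ribosomal protein genes were the most uniformly lower list. Of 82 tested, 2 had a positive log2 fold change, 69 were lower at an unadjusted p under 0.05 and 79 were lower without overlap. In DESeq2 60 fell, and with the replicate block 1 did (rpl-29). Of all tested genes, 6.35% were lower at an unadjusted p under 0.05, 17.8% lower without overlap and 2.48% lower in DESeq2. The median log2 ratio of the list was -0.93. Its sum was 36402, 48861 and 46087 CPM in cup-4, against 79926 and 69503 CPM in wild type. Both wild-type sums lay well above all 3 cup-4 sums, and the median without cup-4 replicate 1 was -0.92. The most abundant member, rpl-12, had 5711, 8594 and 7012 CPM in cup-4, against 11283 and 9975 CPM in wild type, with a log2 ratio of -0.58 ± 0.33 (SE). The gene rpl-3 had 1554, 2225 and 2151 CPM in cup-4, against 3077 and 3277 CPM in wild type, again with no overlap.

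Lists of protein synthesis, protein turnover, splicing and energy metabolism had medians below 0 of smaller size. The summed levels of the translation, splicing and respiration lists overlapped between genotypes, while that of the proteasome did not, with 5515, 6990.1 and 7033 CPM in cup-4, against 7907 and 8724 CPM in wild type. Translation factors had a median of -0.31 (1 higher, 6 lower of 41), and -0.49 without cup-4 replicate 2. The cap-binding protein gene ife-3 had 83.4, 92.4 and 99.2 CPM in cup-4, against 221 and 199 CPM in wild type, and it fell in DESeq2 (adjusted p 0.000133), as did the germline eIF5A gene iff-1 with 267, 364 and 345 CPM in cup-4, against 729 and 581 CPM in wild type (adjusted p 0.0111). The elongation factor genes eef-2 and eef-1G, among the most abundant genes of both genotypes, overlapped between them. Proteasome genes had a median of -0.44 (0 higher, 9 lower of 33). The core subunit gene pbs-6 had 88.1, 112.2 and 118.7 CPM in cup-4, against 200.5 and 187 CPM in wild type (DESeq2, adjusted p 0.0252), whereas the large regulatory subunit genes rpn-1 and rpn-2 had log2 ratios of 0.037 and 0.039.

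Nuclear genes of mitochondrial respiration had a median of -0.49 (0 higher, 18 lower of 45). The succinate dehydrogenase subunit gene sdhd-1 had 35.6, 35.2 and 39.2 CPM in cup-4, against 76.5 and 72.5 CPM in wild type, and the cytochrome c oxidase subunit gene cox-7C had 35.5, 35.2 and 34.4 CPM in cup-4, against 76.6 and 65.0 CPM in wild type. Both fell in DESeq2 (adjusted p 0.000815 and 0.000756), while the ATP synthase gene atp-2 had a log2 ratio of -0.10 ± 0.30 (SE). Splicing factor genes had a median of -0.17 (0 higher, 11 lower of 47), and -0.35 without cup-4 replicate 2. The Sm protein gene snr-5 had 10.0, 12.07 and 13.6 CPM in cup-4, against 38.6 and 27.9 CPM in wild type, and it fell in DESeq2 (adjusted p 0.000705), whereas the large spliceosome genes prp-8 and snrp-200 had log2 ratios of 0.64 ± 0.43 (SE) and 0.80 ± 0.41 (SE). Redox genes had a median of -0.30 (1 higher, 8 lower of 25), which was -0.47 without cup-4 replicate 1, and the mitochondrial peroxiredoxin gene prdx-3 had 117, 102 and 129 CPM in cup-4, against 212 and 196 CPM in wild type.

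Histone genes had a median of -0.58, with 1 higher and 14 lower of 48, and 5 fell in DESeq2. The list summed to 4144, 4743 and 5491 CPM in cup-4, against 8043 and 7508 CPM in wild type. The histone H3 gene his-74 had 52.7, 57.0 and 61.8 CPM in cup-4, against 142 and 108 CPM in wild type (DESeq2, adjusted p 0.00172), and the linker histone gene hil-5 had 1298, 1414 and 1694 CPM in cup-4, against 2629 and 2403 CPM in wild type. Of the 48 genes 12 had a positive log2 fold change, and 1 of these, the linker histone gene his-24, rose with the replicate block, with 40.6, 21.6 and 11.6 CPM in cup-4, against 6.61 and 4.21 CPM in wild type. It was chosen after its values were seen. Without wild-type replicate 2 the histone median was -0.24, and many core histone genes are near-identical copies that share reads. Long intergenic noncoding RNA genes had a median of -0.42 over 27 tested. This median depended on single libraries: it was -0.97 without cup-4 replicate 1, -0.052 without cup-4 replicate 2, -0.23 without cup-4 replicate 3 and 0.093 without wild-type replicate 2, and -0.90 with the replicate block. The most abundant, linc-7, had 30.8, 43.2 and 29.6 CPM in cup-4, against 87.8 and 77.9 CPM in wild type, and it fell in DESeq2 (adjusted p 0.000910).

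Among the remaining lists, 3 had medians close to that of all genes. Proton pump genes had a median of -0.0038, nucleolus and ribosome assembly genes 0.082, and heat shock and folding genes 0.040. At an unadjusted p under 0.05, 3 were higher and 2 lower of 21 proton pump genes, and 1 and 0 of 23 nucleolus genes. Of 33 heat shock genes 6 were higher and 1 lower, against 10.8% and 6.35% of all tested genes. Without overlap, 10 heat shock genes were higher and 1 lower, and 6 proton pump genes higher and 3 lower. The shares of all tested genes were 20.1% and 17.8%. Leaving out wild-type replicate 2 turned the nucleolus median to -0.15 and the heat shock median to -0.14. Among heat shock genes, the inducible gene hsp-70 had 31.2, 45.8 and 45.5 CPM in cup-4, against 3.58 and 12.9 CPM in wild type, and it rose in DESeq2 (adjusted p 0.00137), while hsp-1 and hsp-90 overlapped between genotypes. The F-box families had a median of 0.79, but 0.11 without cup-4 replicate 1, 0.32 without wild-type replicate 3 and -0.22 over genes that averaged 50 counts or more. Of 172 F-box genes tested, 43 were under the filter level in every library of 1 genotype. The summed level of these families went the other way, with 962, 952 and 914 CPM in cup-4, against 1020.5 and 1122 CPM in wild type. In that list fbxb-7 had 20.97, 13.6 and 23.1 CPM in cup-4, against 43.99 and 46.7 CPM in wild type, and it fell in DESeq2 (adjusted p 0.00487).

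The chromosomes were not equally represented among these genes. Tested genes on the X, which is largely silent in dividing and meiotic germ cells and active in somatic cells and late oocytes, had a median log2 ratio of 0.57. On the X, 342 of 1596 genes (21.4%) were higher and 24 (1.504%) lower at an unadjusted p under 0.05, against 10.8% and 6.35% of all tested genes. Autosome medians ran from 0.0019 on III through 0.044 on I, 0.12 on II and 0.16 on IV to 0.28 on V. Without cup-4 replicate 1 the X median was 0.32 and that of V 0.047, and those of I, II, III and IV were below 0. The X genes in no list had a median of 0.56, so the X median did not rest on the listed genes. Apart from yolk genes, X genes summed to 71394, 48075 and 48842 CPM in cup-4, against 36604 and 27872 CPM in wild type. Among genes spanning 2000 to 4000 bp, with all 5 libraries, the median was 0.46 on V and 0.46 on X. Other spans were not compared between chromosomes. Over all spans, 40.1% of tested genes on X and 25.3% on V were higher without overlap, against 20.1% of all tested genes. These are descriptions over genes of the same 5 libraries.

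**Figure D3:**
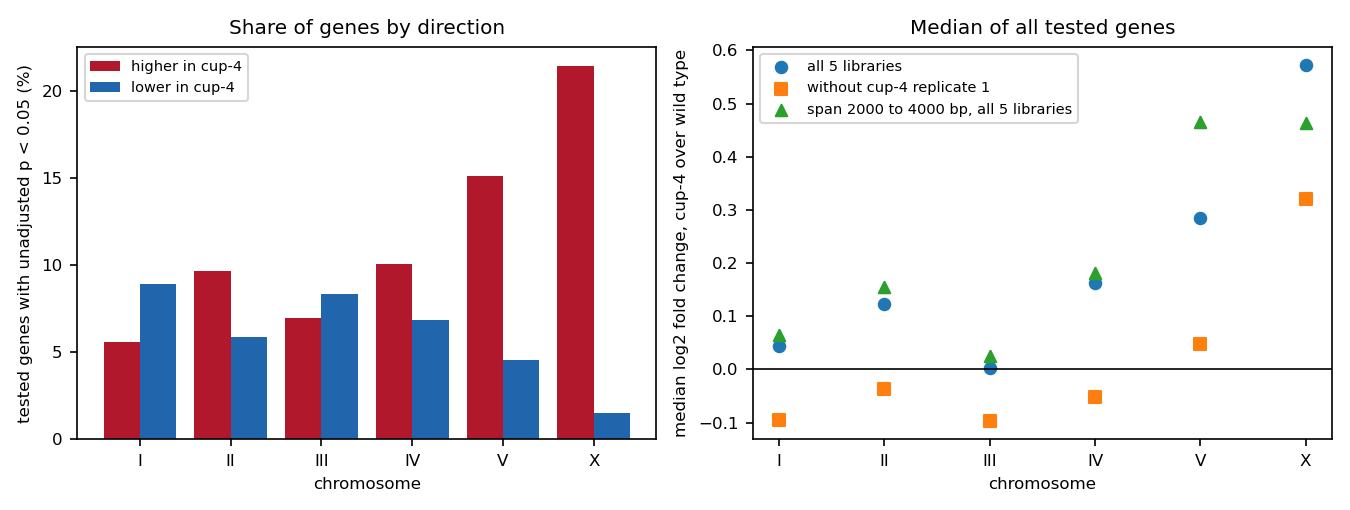
Left, the percentage of tested genes on each chromosome with an unadjusted p under 0.05 that were higher (red) or lower (blue) in cup-4. Right, the median log2 fold change of the tested genes of each chromosome, with all libraries, without cup-4 replicate 1, and for genes spanning 2000 to 4000 bp; the X stands at 21.4% higher and at 0.57.

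Gene span moved with the fold change as well. The span, the length of the gene in the RefSeq annotation of WBcel235 with introns included, was known for 12230 tested protein-coding genes other than ribosomal protein genes. The median log2 fold change was -0.21 for genes of up to 500 bp, -0.35 for 500 to 1000 bp and -0.024 for 1000 to 2000 bp. It was 0.19 for 2000 to 4000 bp, 0.34 for 4000 to 8000 bp and 0.49 above 8000 bp. The rank correlation of span and log2 fold change across genes, which are not independent replicates, was 0.30, and 0.59 over the 1820 genes that averaged 100 CPM or more. Single pairs of libraries differed in this. Over the same 1820 genes the rank correlation of span with the log2 ratio was 0.062 for cup-4 replicate 2 over wild-type replicate 3, 0.41 for cup-4 replicate 1 over wild-type replicate 3 and 0.43 for cup-4 replicate 3 over wild-type replicate 3. It was 0.69, 0.70 and 0.78 for cup-4 replicates 1, 2 and 3 over wild-type replicate 2. It was also 0.74 for wild-type replicate 3 over wild-type replicate 2, within the range of the pairs across genotypes. Its part in the lower levels of lists of short genes was not tested. The check is void for ribosomal proteins, since a span was found by name for 61 of the 82 genes, too few to stand for the list. Among the other lower genes of lowest p, C08F11.7 spans 1392 bp and gpx-4 2054 bp, while osgn-1 and haf-6 span 10878 and 12930 bp.

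**Figure D4:**
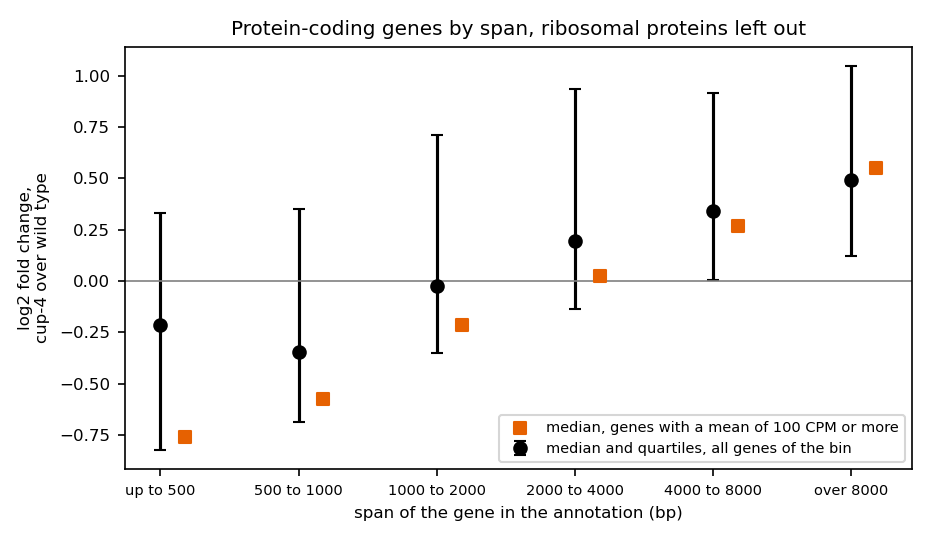
Log2 fold change of cup-4 over wild type by gene span in bp for protein-coding genes other than ribosomal proteins; black points and bars are medians and quartiles of all genes in a bin, orange squares are medians of genes that averaged 100 CPM or more. The median goes from -0.35 at 500 to 1000 bp to 0.49 above 8000 bp.

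The second readout was antisense small RNA at the same genes, counted in 3 cup-4 and 3 wild-type libraries. Of the 24 genes of lowest mRNA p, 23 could be tested, and 4 passed an adjusted p of 0.05 in edgeR, where 1.12% of all 13336 genes tested did. All 4 were among the genes with less mRNA in cup-4. They went in both directions. At C08F11.7, antisense small RNA was 201, 179 and 121 CPM in cup-4 replicates 1, 2 and 3, against 40.6, 29.6 and 31.6 CPM in wild-type replicates 1, 2 and 3, a log2 ratio of 2.30 ± 0.21 (SE) and an adjusted p of 0.0116. At gpx-4 it was 189, 192 and 178 CPM in cup-4 replicates 1, 2 and 3, against 73.6, 107 and 75.5 CPM in wild-type replicates 1, 2 and 3, a log2 ratio of 1.12 ± 0.15 (SE), with 0.0216 for the adjusted p. The 3 cup-4 libraries lay above the 3 wild-type libraries at both genes, whose mRNA was lower.

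At the 2 other genes small RNA and mRNA were both lower. The gene haf-6 had 6.31, 6.64 and 6.83 CPM in cup-4 replicates 1, 2 and 3, against 29.9, 30.7 and 31.3 CPM in wild-type replicates 1, 2 and 3, a log2 ratio of -2.21 ± 0.11 (SE), with 0.000569 for the adjusted p, and osgn-1 had 14.8, 12.57 and 13.8 CPM in cup-4 replicates 1, 2 and 3, against 54.9, 46.3 and 49.6 CPM in wild-type replicates 1, 2 and 3, a log2 ratio of -1.87 ± 0.11 (SE), with 0.000979 for the adjusted p. The spread within each genotype was small beside these differences. None of the 11 genes with more mRNA passed in edgeR, with or without the replicate block, whereas clec-41 and hpo-34 rose in DESeq2 (adjusted p 0.0111 and 0.0174), which gave no adjusted p for 4 of the 11. Of these genes 10 had a positive small RNA log2 fold change, and the values ran from -0.17 ± 0.45 (SE) at smd-1, the exception, to 2.03 ± 0.57 (SE) at clec-41. The 7 ribosomal protein genes had small RNA log2 fold changes between -0.73 ± 0.24 (SE) at rpl-43 and -0.14 ± 0.14 (SE) at rpl-38. None of the 7 passed in edgeR, but rpl-43 fell with the replicate block (adjusted p 0.0293) and in DESeq2 (adjusted p 0.0265). Leaving out 1 library brought the number of genes that passed to between 2 and 4.

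**Figure D5:**
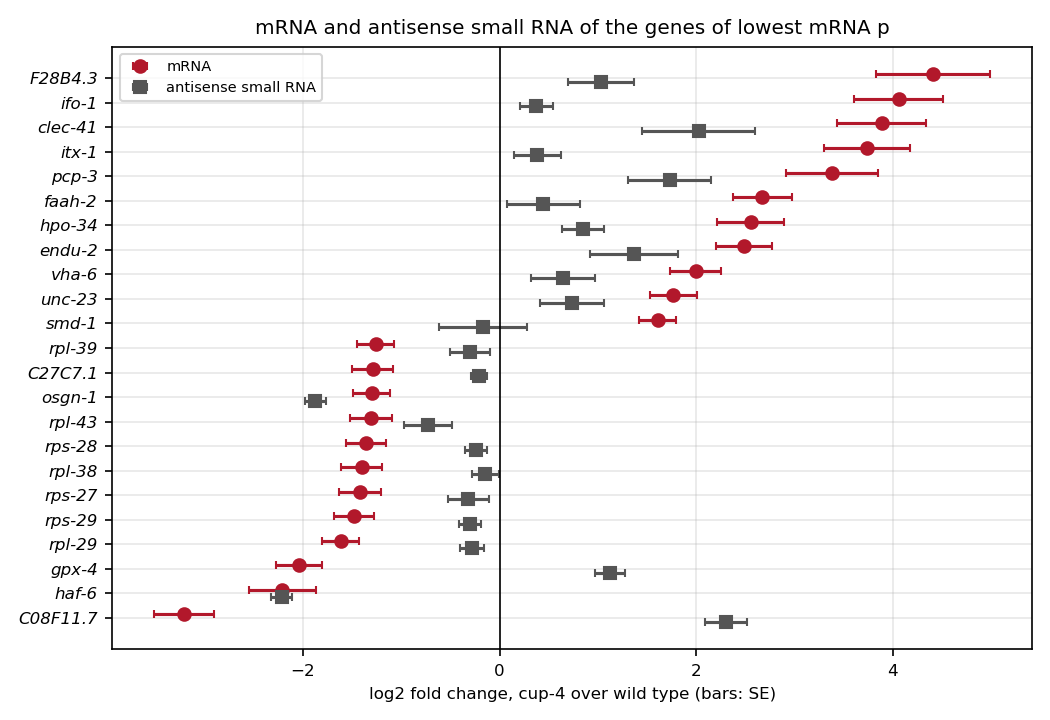
Log2 fold change of cup-4 over wild type with its SE for mRNA (red circles) and antisense small RNA (grey squares) at 23 of the 24 genes of lowest mRNA p. C08F11.7 and gpx-4 have less mRNA and more small RNA, haf-6 and osgn-1 less of both, and no gene with more mRNA passed for small RNA in edgeR.

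The genes that took the most reads also differed by genotype. In cup-4 the 5 leading genes were vit-6, vit-5, vit-2, eef-2 and eef-1G. In wild type they were rrn-3.1, clec-87, eef-2, eef-1G and ndk-1. The ribosomal RNA gene rrn-3.1 had 24756, 3412 and 14343 CPM in cup-4, against 39636 and 41244 CPM in wild type, and cup-4 replicate 2 was far below every other library. The nucleoside diphosphate kinase gene ndk-1 had 8042, 11601 and 9637 CPM in cup-4, against 16176 and 14416 CPM in wild type, with no overlap and an edgeR adjusted p of 0.384. The share of ribosomal RNA genes, given above, was lower in every cup-4 library, and its part in the lower ribosomal protein levels was not tested.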

How the data were processed

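Gonads of adults on day 1 were dissected from both strains, and RNA was taken with Trizol and chloroform and made into libraries with a directional NEBNext kit, per the labels' protocols. The authors deposited a table of read counts per gene, made before deposit with tools that the submitters' processing notes name without roles (FastQC, cutadapt, HISAT2, HTSeq, DESeq2) on genome build ce11. Versions, and whether counting used strand, are not given in the sources used here. The 5 summary rows of the table, 13.4% to 23.8% of a library, were left out. A wild-type replicate 1 mRNA library was not analysed here.

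Genes were filtered with edgeR 4.0.16 (filterByExpr, about 0.413 CPM in a typical library), scaled with TMM, and tested with its quasi-likelihood test in R 4.3.3, p-values being adjusted by Benjamini and Hochberg over all 12861 genes. DESeq2 1.42.0, limma 3.58.1, other scalings and filters, and omission of each library were alternatives. Since the replicate number is the batch number in the labels, the numbers pair the libraries, and a fit with the replicate block was run. Deviations of same-batch libraries correlated by -0.12 in batch 2 and 0.54 in batch 3, although the 2 wild-type deviations mirror each other. Statistical code was tested on simulated data.

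Named genes were the 12 of lowest p in each direction with no overlap and at least 10 CPM, up to 3 list members by level and up to 3 by p, the 5 most abundant genes of each genotype and the 5 of lowest p with the replicate block. Members and lists were chosen with earlier results of these data known. Spans and positions came from RefSeq for WBcel235, the assembly ce11 refers to. Precision is limited by 3 and 2 libraries of 21290140 to 29559542 gene counts, and p-values measure the spread between these libraries only.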

Additional observations from a re-analysis of the deposited data

How the results depend on the processing

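With the filter on low counts, no gene passed an adjusted p of 0.05 in edgeR without a block, nor in limma-voom or when any single library was left out. The replicate block passed 199 genes, and 4 when run on batches 2 and 3 only, a choice made after seeing the data. DESeq2 passed 1066, and edgeR with no filter on low counts passed 313, of which 254 were higher and 59 lower. Genes higher at an unadjusted p under 0.05 numbered 1392, and 736 in batches 2 and 3 only, with a range of 736 without cup-4 replicate 1 to 2017 without wild-type replicate 2. Lower genes numbered 817, 481 with the replicate block, and between 369 without cup-4 replicate 3 and 823 without cup-4 replicate 1, with 450 when wild-type replicate 2 was left out. The median over all genes ranged from -0.027 to 0.18 when 1 library was left out. Over genes averaging 50 counts, 969 were higher and 956 lower, with a median of 0.052. Antisense small RNA passed at 4 named genes, at 7 in DESeq2, at 7 with no filter, at 5 with the replicate block and at 2 (without cup-4 replicate 2) to 4 when 1 library was left out. Alternatives were followed gene by gene for 29 genes (the 24 of lowest p, cup-4 and the leading genes of the replicate block): 358 of their values kept side and direction, 77 newly passed and 0 reversed. No gene passed in the main fit, so none could lose its call. The 24 were chosen without overlap, which left little room for a reversal. Batches 2 and 3 only, and the omission of cup-4 replicate 1, use the same libraries but were counted as separate alternatives. For list medians 491 moved less than the spread allowed and 64 moved more. Genes near the filter hold few reads, so their ratios are less precise.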
